A study of Homo sapiens with 2 samples.

Results

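Aminoacyl-tRNA synthetases are the enzymes that load each tRNA with its amino acid before the ribosome uses it. The genes described here were taken by symbol from a list of 35, of which 19 encode enzymes counted as cytosolic and 16 encode mitochondrial ones, whose symbols end in 2. The rule that picks them uses symbols and no measured value, though the list was drawn up with earlier results of these data known. Probe sets annotated to a single gene were found for 32 of the 35, 17 cytosolic and 15 mitochondrial, out of 19775 genes read in the series. These 32 genes had 67 probe sets, 59 of them above the background floor. MARS1, QARS1 and TARS2 are read by probe sets that the annotation also gives to a microRNA gene, and their own values are not reported here.

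Gene expression was measured on Affymetrix arrays in KG1, a human acute myeloid leukaemia line with progenitor features. Cells of the siRNA-Tbet group received 1.98 µg of an siRNA against T-bet by electroporation, and cells of the siRNAc group received 1.98 µg of a control siRNA in the same way. After 5 h of rest both groups received 10 ng/ml interleukin-18 for 12 h, so no group without electroporation or without interleukin-18 enters the comparison. Each group holds 1 array, so no value below has a replicate check, no p-value was computed, and the number of arrays limits the precision. The targeted gene TBX21, which encodes T-bet, had a signal of 1839 with siRNA-Tbet, against 3581 with siRNAc, a log2 ratio of -0.96. The progenitor and leukocyte markers CD34 (17130 and 15839 with siRNA-Tbet and siRNAc) and PTPRC (21790.4 and 22778) were bright, as was HLA-DRA. SPN had 2313 with siRNA-Tbet and 2052 with siRNAc on a probe set that can cross-hybridise. EPCAM and ALB stayed below the floor, MS4A1 had 88.3 with siRNA-Tbet and 183 with siRNAc, and the only measured probe set of COL1A1 is one that can cross-hybridise (452 with siRNA-Tbet and 610.0 with siRNAc). In RNA from a whole culture, fewer cells of a type and less RNA per cell cannot be told apart.

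In the cytosol most amino acids have an enzyme of their own, while EPRS1 joins the glutamate and proline enzymes in 1 chain and FARSA and FARSB are the subunits of the phenylalanine enzyme. Several of the cytosolic enzymes are held in a multisynthetase complex. Mitochondria use a separate set of enzymes, encoded in the nucleus, to translate the few proteins of their own genome, whereas GARS1 and KARS1 each supply both compartments from 1 gene. In the amino acid response, the transcription factor ATF4 raises many cytosolic synthetase genes together with ASNS and other genes of amino acid supply. WARS1, the tryptophan enzyme, is also induced by interferon-γ, alongside the tryptophan-degrading enzyme IDO1.

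The promoter sequences show which synthetase genes hold the letters of the amino acid response element near the start site. RefSeq windows of 300 bases, from 250 before to 50 after the start site in GRCh38.p14, were at hand for 30 of the 35 genes. The ATF4 and C/EBP element TTGCATCA, searched on both strands (TGATGCAA on the other), was found in 6 of these 30 genes and in 1.08% of all 27305 genes with a window. All 6 are cytosolic (6 of 16 cytosolic and 0 of 14 mitochondrial genes). Of 19 amino acid response genes outside the synthetases, 2 held the letters, CHAC1 and CEBPG. A window without these letters does not show that a gene lacks such an element. The 6 synthetase genes are shown because the signals of all of them but MARS1 are set beside those of other ATF4 targets below. Each line gives 30 bases on the gene's own strand, with the element in capitals.
AARS1: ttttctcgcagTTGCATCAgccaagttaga
CARS1: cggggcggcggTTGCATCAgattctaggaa
IARS1: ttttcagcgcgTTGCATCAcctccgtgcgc
MARS1: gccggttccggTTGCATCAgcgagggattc
NARS1: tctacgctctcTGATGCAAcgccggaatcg
TARS1: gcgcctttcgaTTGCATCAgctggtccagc

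These stretches lie at chr16:70289675-70289704 (minus strand) for AARS1, chr11:3057407-3057436 (minus strand) for CARS1, chr9:92293692-92293721 (minus strand) for IARS1, chr12:57488053-57488082 (plus strand) for MARS1, chr18:57621804-57621833 (minus strand) for NARS1 and chr5:33440956-33440985 (plus strand) for TARS1. The element began 187 bases before the start site in AARS1 and 13, 2 and 4 bases before it in IARS1, CARS1 and MARS1. In TARS1 and NARS1 it began at base 3 and base 15 after the start. The relaxed form TGATGNAA, which contains TGATGCAA, added GARS1 and YARS2, for 8 of 30 genes against 4.46% of all genes. The T-box letters TCACACC, searched on both strands, were present in 1 of the 30 genes, TARS2, and in 4.2% of all genes. A match is a description of the letters and not a measured binding site.

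The promoter of WARS1 holds letters of both interferon elements, and it is shown because WARS1 is the synthetase known for its interferon response. One of its 2 RefSeq windows contained the gamma-activated letters TTCNNNGAA, which read the same on both strands, beginning 142 bases before the start site. It also contained the interferon-stimulated response letters, GAAA repeated after a gap of 2 bases and searched on both strands, beginning 55 bases before the start, and these did not overlap. The 160 bases before that start site, chr14:100375348-100375507 on the minus strand, are given with both elements in capitals.
WARS1: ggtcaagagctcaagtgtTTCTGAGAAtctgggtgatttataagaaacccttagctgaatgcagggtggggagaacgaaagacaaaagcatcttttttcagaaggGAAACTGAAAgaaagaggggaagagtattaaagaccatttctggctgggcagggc
The response element letters were found in 2 of 30 synthetase genes, WARS1 and EARS2, against 4.38% of all genes, and the gamma-activated letters in 5 of 30 against 9.38%.

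The cytosolic synthetases had nearly the same signal on both arrays when each gene was read by its brightest probe set. The median log2 ratio of the 17 genes, siRNA-Tbet over siRNAc, was -0.0032 (a percent difference of -0.22), with 8 genes higher and 9 lower. The ratios ran from -0.20 to 0.12 with an SD of 0.09 between genes. Of the 17, 16 differed by less than 1.1-fold. Among all 3809 measured genes at least as bright as the dimmest of them, the share within 1.1-fold was 70.1%, and over all 12309 measured genes it was 50.2%, with medians of 0.0014 and -0.02. Beyond that lower cut the 3809 genes were not matched to the 17 in signal. The share within 1.1-fold was not computed on the other, dimmer probe sets of the 17. Those had log2 ratios from -0.60 for FARSB to 0.83 for TARS1. On the brightest probe sets none of the 17 was at least 25% higher or at least 20% lower with siRNA-Tbet. These cuts are the same ratio in either direction, and 7.83% and 11.1% of all measured genes passed them. Among the 8231 measured genes at least as bright as the dimmest synthetase of either compartment these shares were 3.78% and 5.9%. The sign of the cytosolic median is not settled, since it was 0.02 after median scaling and -0.01 after quantile normalization.

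**Figure D1:**
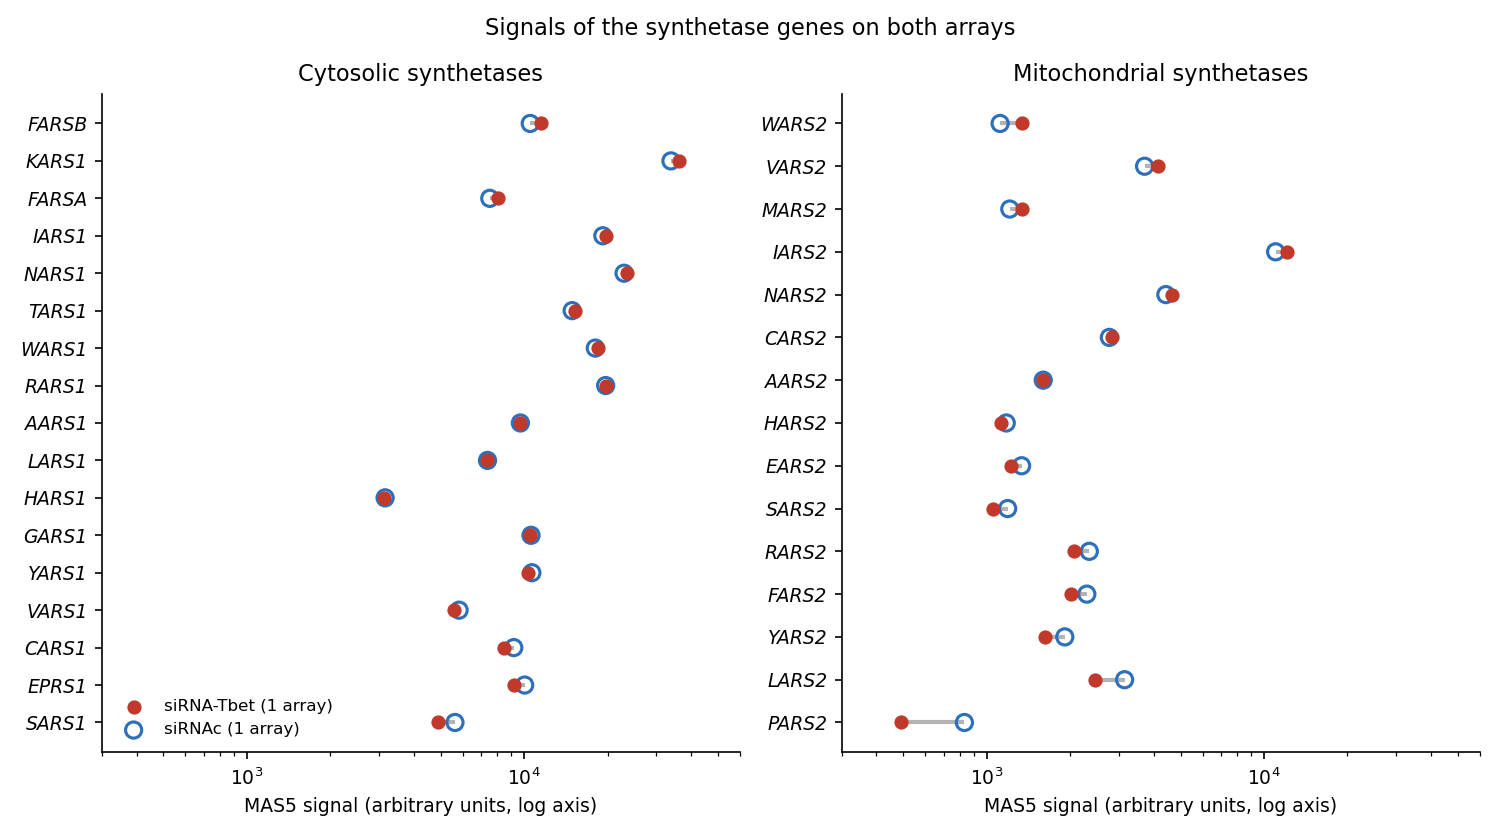
MAS5 signal of each measured synthetase gene on a log axis, for siRNA-Tbet (filled red points) and siRNAc (open blue circles), with 1 array per group and genes ordered by log2 ratio. The 2 symbols nearly coincide for the cytosolic genes, and the widest gap is that of PARS2 (491 with siRNA-Tbet and 830.3 with siRNAc).

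KARS1, the lysine enzyme of both compartments and a member of the complex, had 36195 with siRNA-Tbet and 33848 with siRNAc. That is a log2 ratio of 0.10, and its second probe set gave 0.03. GARS1, the glycine enzyme of both compartments, had 10504 with siRNA-Tbet and 10587 with siRNAc (log2 ratio -0.01). Both differences are smaller than the technical spread, 0.125 on the log2 scale. This spread is the SD between the log2 ratios of the 2 brightest probe sets of a gene, divided by the square root of 2. It was taken in bins of the mean signal of the 2 probe sets, and it leaves out variation between cultures and arrays. The brightest bin lay at a signal near 9912, and brighter genes such as KARS1 were given its value. The plot of signals on both arrays shows the points of these genes almost on top of each other.

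The members of the multisynthetase complex had ratios inside the range of the other cytosolic enzymes. The 5 measured ones, EPRS1, IARS1, KARS1, LARS1 and RARS1, had a median log2 ratio of 0.0006, beside -0.0063 for the 12 outside the complex. RARS1, the arginine enzyme, had 19687 with siRNA-Tbet and 19679 with siRNAc. IARS1, the isoleucine enzyme, had 19767 with siRNA-Tbet and 19222 with siRNAc. EPRS1 was the lowest of the complex, with 9164 in siRNA-Tbet cells and 10043 in siRNAc cells (log2 ratio -0.13). Its other 2 probe sets lay on the opposite side, at 0.08 and 0.35, so its direction depends on the probe set.

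SARS1, the serine enzyme, had the lowest ratio of the cytosolic group. It read 4884 with siRNA-Tbet and 5629 with siRNAc, 1.15-fold lower (log2 ratio -0.20), beyond the technical spread of 0.15 at that signal. Its second probe set gave -0.06. SARS1 and EPRS1 were the only cytosolic genes past that spread (2 of 17), beside 29.3% of all measured genes at least as bright as the dimmest synthetase. FARSB, the β subunit of the phenylalanine enzyme, had the highest cytosolic ratio, with 11469 in siRNA-Tbet cells and 10520 in siRNAc cells (log2 ratio 0.12). Its other 2 probe sets gave -0.26 and -0.60, the second of them a probe set that can cross-hybridise. The α subunit FARSA had 0.09 on the chosen probe set and -0.07 on the other, so neither subunit had a direction that all its probe sets shared.

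The mitochondrial synthetases were more spread out than the cytosolic ones. Their 15 measured genes had a median log2 ratio of -0.07 (a percent difference of -4.65), with 7 higher and 8 lower, and an SD of 0.25 between genes, which is 0.18 without PARS2 and 0.20 over the 8231 genes at least as bright as the dimmest synthetase. Of the 15, 6 (40%) lay within 1.1-fold, beside 59.5% of those 8231 genes and 50.2% of all measured genes. Signals at least 20% lower were seen for 2 of the 15, PARS2 and LARS2, and signals at least 25% higher for 0; the shares of all measured genes are those given above. The technical spread at their signals was larger too, with a median of 0.20 over the mitochondrial genes and 0.13 over the cytosolic ones, and its part in the wider range was not tested. Past their own spread lay 5 of 15 (33.3%), beside 29.3% of all genes as bright. The difference between the medians of the 2 compartments, cytosolic minus mitochondrial, was 0.07, and 0.03 without PARS2, a choice made after seeing the data.

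PARS2, the mitochondrial proline enzyme, had the lowest ratio of all 32 genes. It read 491 with siRNA-Tbet and 830.3 with siRNAc, 1.69-fold lower (log2 ratio -0.76). It lay at percentile 1.1 among the 1231 genes of its signal decile, whose median was -0.04, and its technical spread was 0.29. PARS2 was read at the lowest signal of the 32 and by a single probe set, so no other probe set bears on its value. Of all measured genes 2.93% were at least 1.5-fold lower, and of those at least as bright as PARS2 0.887% were.

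LARS2, the mitochondrial leucine enzyme, had 2454 with siRNA-Tbet and 3141 with siRNAc, 1.28-fold lower (log2 ratio -0.36). Its second probe set, at 1614 with siRNA-Tbet and 1636 with siRNAc, gave only -0.02, so the size of the difference rests on 1 probe set. YARS2, the tyrosine enzyme, had 1623 with siRNA-Tbet and 1912 with siRNAc (log2 ratio -0.24, spread 0.20). FARS2, the phenylalanine enzyme, had 2006 with siRNA-Tbet and 2295 with siRNAc (log2 ratio -0.19), with 0.05 at its other probe set. The arginine and glutamate enzymes had most probe sets on the lower side. RARS2 had log2 ratios of -0.19, -0.10 and -0.32 at its 3 measured probe sets, and EARS2 had -0.13, -0.22, 0.02 and -0.67 at 4.

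At the other end, WARS2, the mitochondrial tryptophan enzyme, had the highest ratio of all 32 genes. It read 1335 with siRNA-Tbet and 1117 with siRNAc, 1.20-fold higher (log2 ratio 0.26), and its second probe set gave 0.21; the technical spread was 0.22. VARS2, the valine enzyme, had 4153 with siRNA-Tbet and 3708 with siRNAc (log2 ratio 0.16). MARS2, the methionine enzyme, had 1337 with siRNA-Tbet and 1210.5 with siRNAc (log2 ratio 0.14). IARS2, the isoleucine enzyme, had 12069 with siRNA-Tbet and 11012 with siRNAc (log2 ratio 0.132, spread 0.125). None of these 4 was 25% higher.

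**Figure D2:**
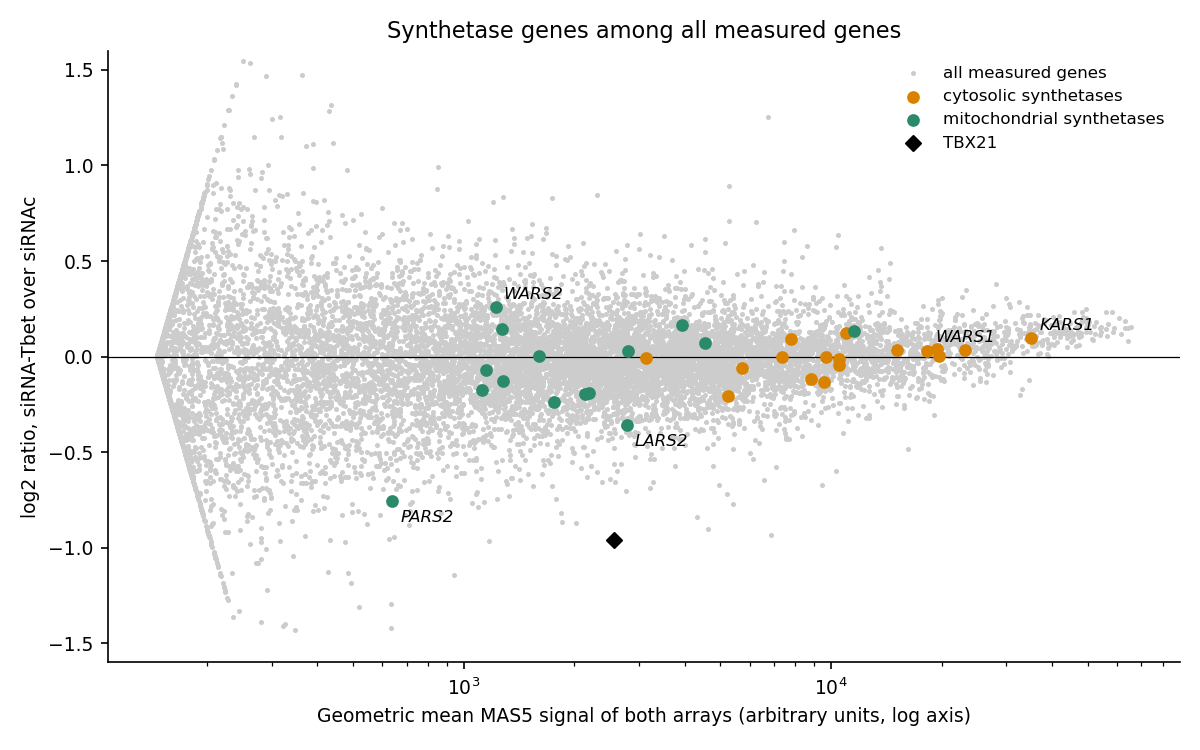
Log2 ratio of siRNA-Tbet over siRNAc against the geometric mean signal of both arrays (log axis) for all 12309 measured genes (grey), the cytosolic (orange) and mitochondrial (green) synthetases and TBX21 (black diamond); 2 genes lie outside the plotted range. The cytosolic genes sit in a narrow band from -0.20 to 0.12, PARS2 lies at -0.76 near the lower edge of the cloud, and TBX21 lies at -0.96.

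Setting the enzymes for the same amino acid side by side gave 11 pairs with both genes measured. In 7 of the 11 the pair lay on the same side of 0, and the mitochondrial gene had the higher ratio in 7 and the lower in 4. Some of these sides rest on ratios very near 0, such as -0.0032 for AARS1, 0.0015 for AARS2 and 0.0006 for RARS1. For tryptophan WARS2 had 0.26 and WARS1 0.03, for serine SARS2 had -0.18 and SARS1 -0.20, and for tyrosine YARS2 had -0.24 and YARS1 -0.05. For leucine LARS2 had -0.36 and LARS1 -0.0040. For valine the pair lay on opposite sides, with 0.16 for VARS2 and -0.06 for VARS1. The pairs share the same 2 arrays and are not independent replicates.

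The structural classes had nearly equal medians. Synthetases fall into class I and class II by the fold of the catalytic domain, a division that crosses both compartments. The 16 measured class I genes had a median log2 ratio of -0.0017, with 8 higher and 8 lower, and the 15 class II genes one of -0.0032, with 7 higher and 8 lower. EPRS1, which holds a domain of each, was counted in neither.

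Different probe sets of a synthetase gene often disagreed in direction. Of the 17 genes with several measured probe sets, 7 had all of them on the same side of 0, or 41.2%. For all 6140 such genes on the arrays the share was 41.4%. TARS1, the threonine enzyme, had the widest gap: its bright probe set had 15268 with siRNA-Tbet and 14899 with siRNAc (log2 ratio 0.04), whereas a dim one had 325 with siRNA-Tbet and 183 with siRNAc (log2 ratio 0.83). CARS2, the mitochondrial cysteine enzyme, had 0.03 on its bright probe set and 0.49 and -0.25 on dim ones. YARS1 had -0.05 on its bright probe set and 0.27 on the other. CARS1 had -0.12 on both of its brightest probe sets and 0.21 and 0.17 on the others. LARS1 had -0.0040, 0.05, 0.15 and 0.35 at its 4 probe sets. AARS1, HARS1, NARS1, AARS2, HARS2, NARS2 and SARS2 each had 1 measured probe set, with log2 ratios from -0.18 for SARS2 to 0.07 for NARS2.

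**Figure D3:**
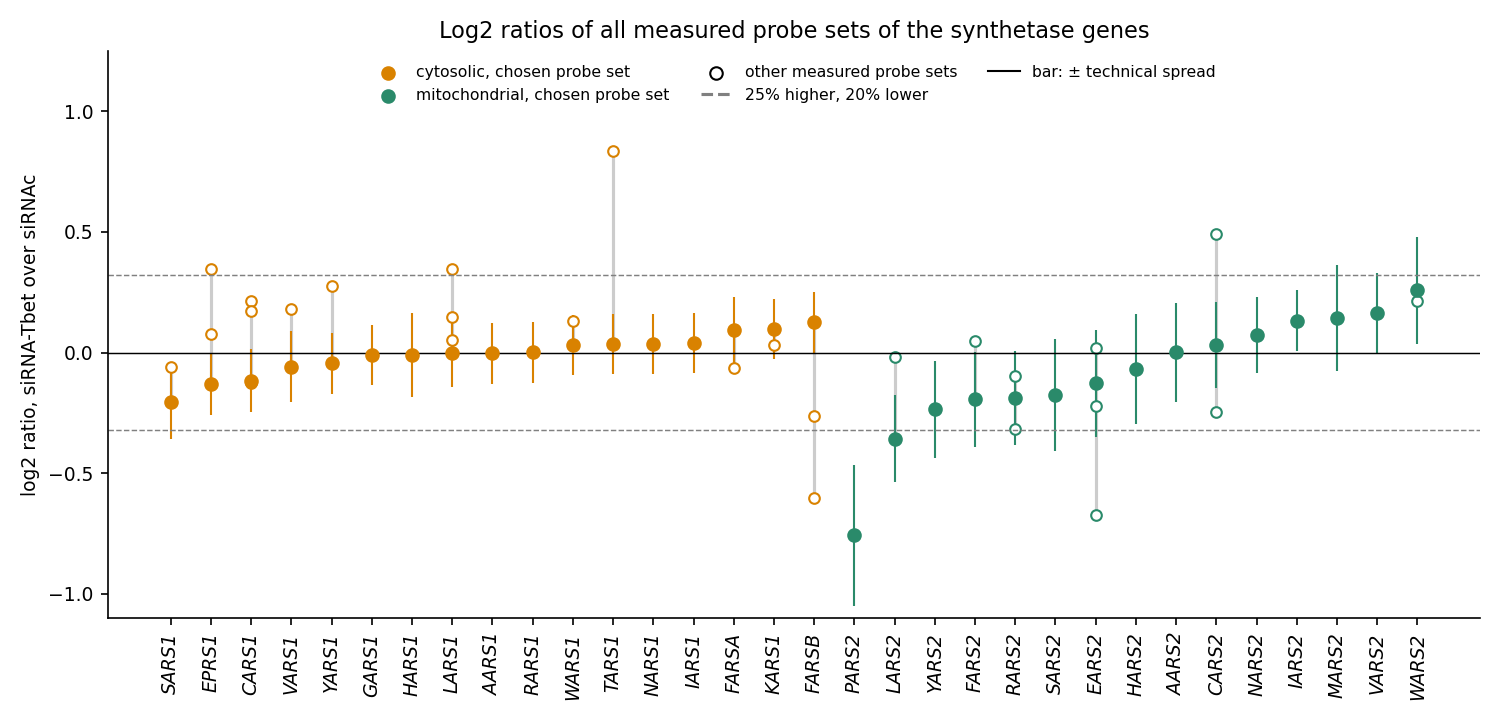
Log2 ratio of siRNA-Tbet over siRNAc at every measured probe set of the 32 genes, with the chosen probe set filled (orange for cytosolic, green for mitochondrial), the others open, a coloured bar for ± the technical spread and dashed lines at 25% higher and 20% lower. PARS2 and LARS2 are the only filled points beyond a dashed line, and the open points of TARS1 (0.83) and FARSB (-0.60) lie far from their filled ones.

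Partners of the charging reaction went both ways. The list of 17 held scaffold proteins of the complex, proofreading enzymes, the mitochondrial glutamine amidotransferase, tRNA export and elongation factors. It also held other tRNA enzymes, among them TARS3, and 13 of the 17 were measured. Their median log2 ratio was -0.05, with 4 higher and 9 lower, and the median size of the ratio in either direction was 0.14, the same as over all measured genes. Of the 13, 1 was at least 20% lower and 0 were at least 25% higher, beside the 11.1% and 7.83% of all measured genes. The lower one was TARS3, with 844 in siRNA-Tbet cells and 1200.0 in siRNAc cells (log2 ratio -0.51). TARS3 is a further threonine enzyme and so a synthetase itself, but it is outside the member list and the synthetase counts above. DTD1, which removes D-amino acids from tRNA, had -0.30 on its brighter probe set and 0.52 on the other. MTFMT, which formylates the mitochondrial initiator tRNA, had 1095 with siRNA-Tbet and 1300 with siRNAc (log2 ratio -0.25). GATB, an amidotransferase subunit, had -0.22, and SEPSECS, which makes selenocysteine on its tRNA, had 0.24 on one probe set and -0.49 on another. AIMP1, a scaffold of the complex, had 5821 with siRNA-Tbet and 5950.4 with siRNAc (log2 ratio -0.03) on its chosen probe set and log2 ratios of 0.33 and -0.39 on the other 2.

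Among genes of the amino acid response, those with the largest ratios on their chosen probe sets were not synthetases. Of the 24 listed genes outside the synthetases, 21 were measured, with a median log2 ratio of 0.07, 14 higher and 7 lower. Of the 21, 4 were at least 25% higher and 1 at least 20% lower, beside the 7.83% and 11.1% of all measured genes. Among these 4, DDIT3 and STC2 counted as measured only through their siRNA-Tbet signal. The filter thus let them in through the group where they are high, and the count is no evidence about the list. DDIT3, which encodes the stress factor CHOP, had 376 with siRNA-Tbet and 106 with siRNAc, at least 2.57-fold higher since the siRNAc value lies under the floor of 146.4. STC2, a secreted glycoprotein, had 216 with siRNA-Tbet and 96 with siRNAc, at least 1.48-fold higher. DDIT4, an inhibitor of mTORC1, had 4447 with siRNA-Tbet and 3392 with siRNAc (log2 ratio 0.39). ASNS, asparagine synthetase, had a log2 ratio of 0.33, and SLC7A11, the cystine transporter, lay on the other side with 5268 with siRNA-Tbet and 8229 with siRNAc (log2 ratio -0.64). ATF4 itself had 24076 with siRNA-Tbet and 22946 with siRNAc (log2 ratio 0.07).

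The synthetase genes commonly counted among ATF4 targets spanned a narrower range on their chosen probe sets. The 11 measured ones of 12, all cytosolic, had a median log2 ratio of -0.0040, with 4 higher and 7 lower, from -0.20 for SARS1 to 0.04 for IARS1. Other probe sets of these genes reached 0.83, for TARS1. The 11 genes were also brighter, with a lowest signal of 4884 and a median technical spread of 0.125. For the amino acid response genes these were 96 and 0.18. The part of signal in the narrower range was not tested. The 6 other measured cytosolic genes had a median of 0.05. Among the genes whose promoter windows hold TTGCATCA, AARS1 had 9669.55 with siRNA-Tbet and 9691 with siRNAc, a log2 ratio of -0.0032. NARS1, the asparagine enzyme, had 23508 with siRNA-Tbet and 22931 with siRNAc (log2 ratio 0.04), and the chosen probe sets of TARS1 and IARS1 also gave 0.04. CARS1, the cysteine enzyme, had 8461 with siRNA-Tbet and 9175 with siRNAc (log2 ratio -0.12). None of these 5 genes lay past its technical spread.

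WARS1 had slightly higher signals with siRNA-Tbet at both of its probe sets. Its brighter probe set had 18439 with siRNA-Tbet and 18057 with siRNAc (log2 ratio 0.03), and the other had 16710.4 with siRNA-Tbet and 15270.3 with siRNAc (log2 ratio 0.13). The technical spread was 0.125, the value of the brightest bin, so only the second ratio lay past it, and narrowly. For WARS1 the median of its signal decile was 0.04, and with the lowess trend across signals removed the chosen probe set gave -0.01. The other probe set was not computed that way. The sign of the WARS1 ratio is therefore not settled. IFNG, which encodes interferon-γ, had 31243 with siRNA-Tbet and 35136 with siRNAc (log2 ratio -0.17). The 11 measured comparators of 12 had a median log2 ratio of -0.09, with 3 higher and 8 lower, and 2 were at least 20% lower, CXCL9 and IDO1, beside the 11.1% of all measured genes. By sign alone, 6584 of all 12309 measured genes were lower. IDO1 had 256 with siRNA-Tbet and 405 with siRNAc (log2 ratio -0.66) on a single dim probe set, where the technical spread was 0.37. The chemokine gene CXCL9 had -0.42, and ICAM1, an adhesion molecule, had -0.19. IRF1 had -0.15 on its brighter probe set and 0.11 on the other, and CIITA, the master factor of MHC class II genes, had -0.11. GBP1, TAP1 and GBP2, also interferon-induced, had 0.0044, 0.03 and 0.08 on their chosen probe sets, and GBP2 had -0.20 on its other one.

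**Figure D4:**
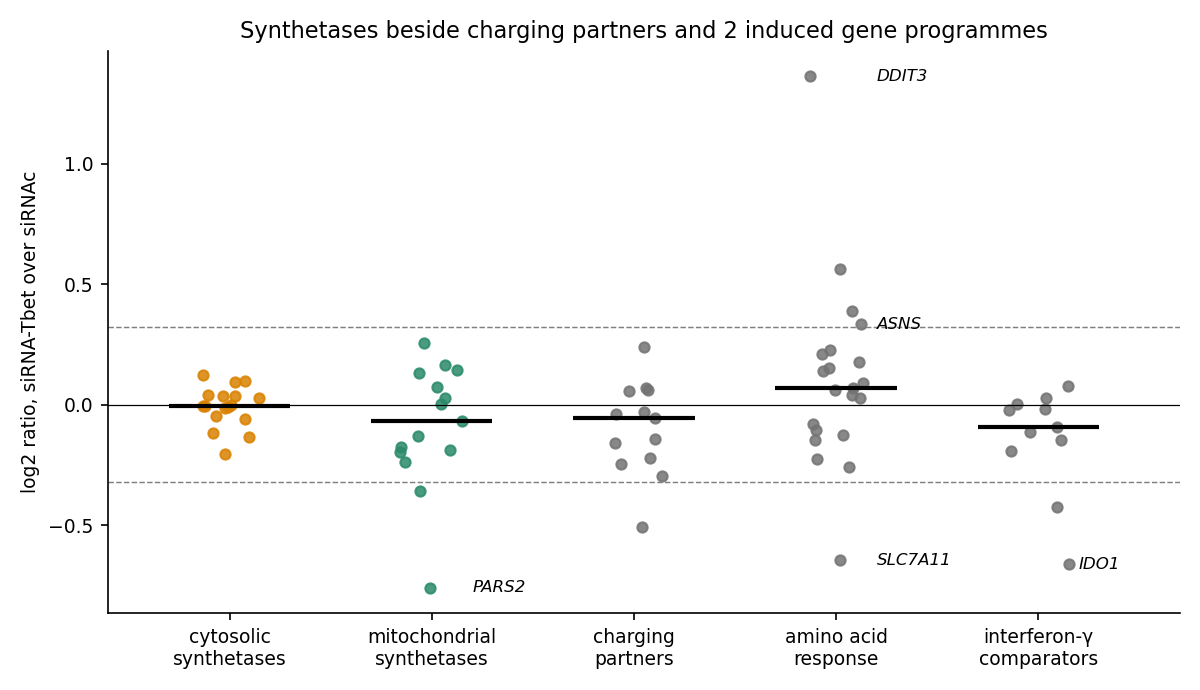
Log2 ratios of siRNA-Tbet over siRNAc for the measured genes of each list, 1 point per gene on its chosen probe set, with the median as a black bar and dashed lines at 25% higher and 20% lower. The medians are -0.0032 for cytosolic and -0.07 for mitochondrial synthetases, -0.05 for charging partners, 0.07 for the amino acid response genes and -0.09 for the interferon-γ comparators, and DDIT3, SLC7A11, IDO1 and PARS2 lie farthest out; DDIT3 is a lower bound.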

How the data were processed

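The deposited values are signal intensities on a linear scale, 1 per probe set and array, made with MAS5 per the submitters' processing notes, which give no version here. MAS5 subtracts mismatch signal, which makes dim probe sets noisy. Both arrays had a trimmed mean of 1000 (2% removed at each end) and were not rescaled. The platform annotation, updated through Entrez numbers to RefSeq GRCh38.p14, gave 1 gene for 41097 of 54675 probe sets; 1801 with several genes were not used, and 11777 have no name here. Signals under 146.4, the higher of the 2 array medians over non-control probe sets, were raised to it. A probe set above it on at least 1 array counted as measured. Each gene was read by its brightest measured probe set, avoiding the suffix _x_at where another existed.

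Ratios are log2 of siRNA-Tbet over siRNAc. The technical spread was taken in 10 bins of signal and the signal deciles over measured genes. The procedure was tested on simulated arrays whose noise was drawn from this same spread, with changes placed only in bright genes. That test therefore cannot speak to changes in dim genes or to variation between cultures. The members, gene lists, thresholds and the naming rule (the 5 highest and 5 lowest members, WARS1, GARS1, KARS1, TBX21, IFNG and up to 5 genes per list with the largest ratios) were chosen with earlier results of these data known. Further members, ATF4, AIMP1 and some comparators were named after their values were seen. Proteins of the 2 compartments were not compared, as no protein sequences were used here. Promoter windows are RefSeq's. Python 3.11.15, pandas 2.3.3, numpy 2.4.6 and statsmodels 0.14.6 were used.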

Additional observations from a re-analysis of the deposited data

How the results depend on the processing

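The small medians of the cytosolic and mitochondrial synthetases and of the charging partners changed sign with the choice of probe set, and the cytosolic one also with median scaling. With each gene's second-brightest probe set, the median log2 ratio was 0.0502 for 11 cytosolic and 0.0135 for 6 mitochondrial synthetases, 0.0614 for the charging partners and -0.20 for the interferon-γ comparators, and 2 synthetases were at least 25% higher (TARS1 and CARS2) and 0 at least 20% lower. The calls of TARS1 and CARS2 rest on dim probe sets, and PARS2 has no second probe set. With the median over probe sets, 1 synthetase was higher and 1 lower. The shares of all genes passing these cuts were not computed for the second-brightest and median settings, so those counts have no background beside them. At 1.5-fold 1 synthetase was lower, beside 2.93% of all measured genes, and at 1.1-fold 3 were higher and 7 lower. Within 1.1-fold lay 22 of the 32 (68.8%), beside 50.2% of all measured genes. Among measured genes at least as bright as the dimmest synthetase that share was 59.5%. Under scaling, lowess removal and other floors the counts stayed at 0 and 2. The cytosolic median ran from -0.01 to 0.05 and the mitochondrial one from -0.07 to 0.01 over the alternatives that keep the median, with means of -0.0075 and -0.09; the cytosolic minus mitochondrial difference ran from 0.02 to 0.10. The cause was not tested. Including the probe sets shared with a microRNA gene, and leaving out PARS2, were added after seeing the data; each gave a mitochondrial median of -0.03. The median of all measured genes lay between -0.03 and 0.0034 under the 9 settings it was computed for. No paired analysis was possible because each group holds 1 array, and no array could be left out. Dim probe sets limit the values of PARS2, DDIT3, STC2 and IDO1.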
